A study of Mus musculus with 11 samples.

Results

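Dmrt2 is a single gene, chosen here because it was 1 of 7 genes past an adjusted p of 0.05 between the genotypes of this series in edgeR. It is 1 of 22196 genes obtained from transcript tables of the inguinal mammary glands of 11 mice. All mice were Tsc1-fl/fl, with both Tsc1 copies open to removal by the recombinase Cre. In the 6 Knockout mice (Adipoq-Cre-Tg/+) a transgene made Cre from the adiponectin promoter, whose activity is that of adipocytes, while the 5 Wild-Type mice (Adipoq-Cre-+/+) lacked it. Both groups ate normal chow, and the glands were taken 16 days after delivery, with the age label PND16.5. The deletion and the presence of Cre itself cannot be told apart, since no mice with Cre alone enter the comparison. Where nothing in the labels names litters or separate collection days, the spread between libraries may hold such differences as well.

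Dmrt2 encodes a transcription factor of the DMRT family, whose members bind DNA through a zinc-binding DM domain named after the fly gene doublesex and the worm gene mab-3. Dmrt2 is best known from the embryo. It is active in the somites, the blocks of tissue that give rise to trunk muscle and axial skeleton, where it acts downstream of Pax3 and upstream of the muscle gene Myf5, and it has also been placed in developing cartilage between Sox9 and Runx2. The Tsc1 protein is part of the brake on mTORC1, a kinase complex that drives cell growth. The comparison asks how the transcripts of the gland differ when adipocytes lack Tsc1.

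Dmrt2 (ENSMUSG00000048138) lies on chromosome 19, 25672411 to 25678991, plus strand, in GRCm38. GENCODE M21 gives it 1 transcript with 4 exons and 2337 bases. The deposited tables list that transcript at 1686 bases, which equals its coding sequence with the stop codon, so reads from its 651 untranslated bases were not counted. No other annotated gene overlaps it. The nearest is 2610016A17Rik, a non-coding gene on the minus strand that starts 158 bases away at 25672253 and runs in the other direction. It is not in the deposited tables and was not analysed here. The stretch between the 2 start sites is shown because it is the promoter-side sequence that both genes face. It covers chr19:25672254-25672393 on the plus strand, from the base after the start of 2610016A17Rik to the base before the RefSeq start of Dmrt2 (RefSeq, GRCm38.p6), with the motif CCAAT in capitals.

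Dmrt2 upstream: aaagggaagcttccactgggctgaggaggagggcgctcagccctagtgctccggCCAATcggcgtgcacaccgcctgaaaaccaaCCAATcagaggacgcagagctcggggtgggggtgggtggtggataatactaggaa

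These 140 bases hold CCAAT 2 times, searched on both strands. Of 32851 RefSeq promoter windows of the same length and position, 23.6% hold it at least once and 5.49% at least 2 times. The stretch is 60.7% G and C, against a median of 53.6% over the same windows. No binding or chromatin data were measured here, so the motif is a description of the sequence only.

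Libraries held between 25817975 and 37894237 estimated reads. Milk protein genes took a large part of them, as a list of 9 genes summed to between 417917 and 749144 CPM (counts over library size, the latter corrected for composition by edgeR's TMM). Tsc1 itself stood at 10.1 ± 1.33 CPM in Knockout (SD, n = 6) against 10.7 ± 1.11 CPM in Wild-Type (SD, n = 5) (edgeR adjusted p = 0.772), a sum over all its exons and all cells of the gland. It therefore does not check the genotype labels.

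Dmrt2 was higher in every Knockout library than in every Wild-Type library. Knockout libraries 1 to 6 had 166, 32, 81, 87, 69 and 85 Dmrt2 reads, which is 3.69, 1.09, 2.68, 2.62, 2.53 and 2.42 CPM. Wild-Type libraries 1 to 5 had 10, 10, 13, 23 and 17 reads, which is 0.350, 0.418, 0.408, 0.699 and 0.597 CPM. The groups did not overlap, and Knockout 1 stood highest and Knockout 2 lowest among the Knockout libraries, with the other 4 close together. Over all 12716 genes tested, 0.786% had every Knockout library above every Wild-Type library.

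The means were 2.50 ± 0.830 CPM in Knockout (SD, n = 6) against 0.494 ± 0.147 CPM in Wild-Type (SD, n = 5), 5.06-fold apart. On the log2 scale of the edgeR fit the difference was 2.33 ± 0.30 (SE), the 17th highest of 12716 genes. The median size of the log2 difference over all genes was 0.13. The gene was chosen on this contrast, so these values are given as a description with no test. In the whole gland, more cells that make a transcript and more transcript per cell cannot be told apart.

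**Figure D1:**
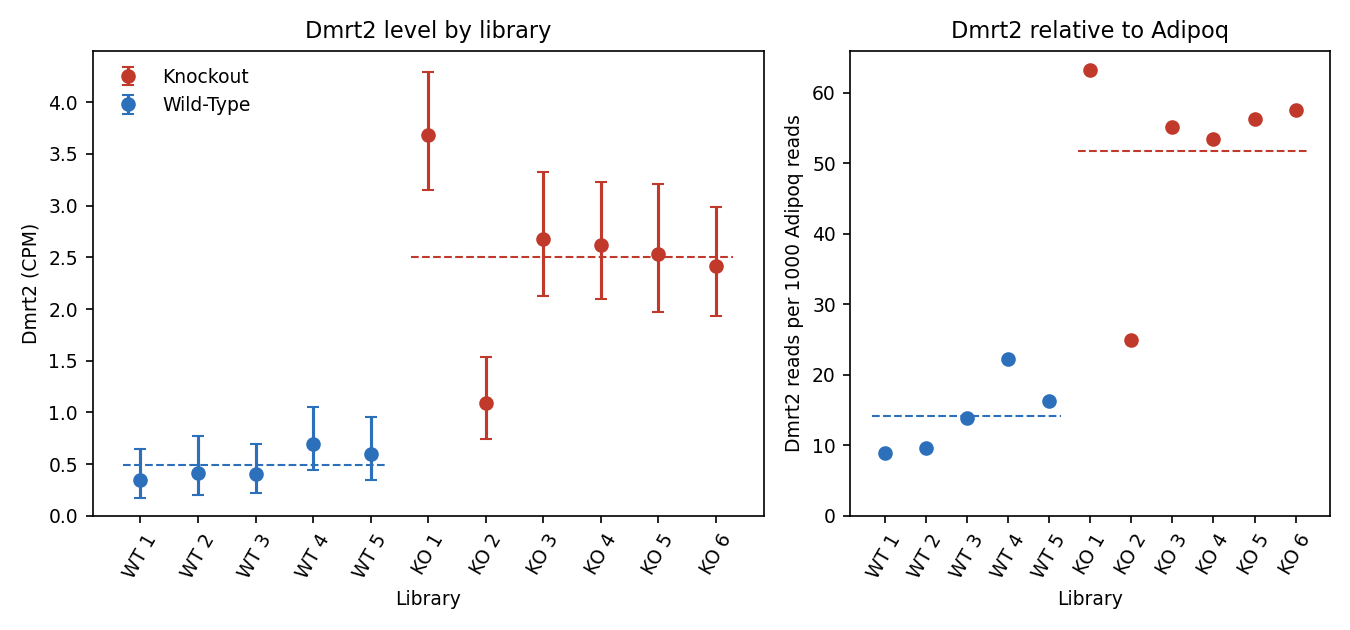
Left, Dmrt2 in CPM for each library, with bars for the 95% exact Poisson interval of its reads. Right, Dmrt2 reads per 1000 Adipoq reads. Dashed lines are group means, and KO and WT stand for the Knockout and Wild-Type libraries. Every Knockout library lies above every Wild-Type library in both, and Knockout 2 lies between the other Knockout libraries and the Wild-Type libraries.

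The counts behind these levels are small, and counting error was close to the whole spread in Wild-Type but a smaller part of it in Knockout. The lowest Knockout library and the highest Wild-Type library were 1.56-fold apart. The 95% exact Poisson interval of Knockout 2 was 0.746 to 1.54 CPM and that of Wild-Type 4 was 0.443 to 1.05 CPM, so these 2 libraries were not separated beyond counting error. The other 5 Knockout intervals began at 1.93 CPM or above, clear of the highest Wild-Type interval. Among Wild-Type libraries the SD of 0.147 CPM was close to the 0.132 CPM that counting error alone gives. Among Knockout libraries it was 0.830 CPM, against 0.283 CPM from counting. The reads carry no molecular identifiers and may be copies of 1 molecule, so these intervals cover counting error only.

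Per transcript length, Dmrt2 was a low-abundance gene in both groups. The authors' deposited TPM, a level scaled by length and to a common total, was 0.690 ± 0.306 in Knockout (SD, n = 6) against 0.117 ± 0.0495 in Wild-Type (SD, n = 5). Of the genes with a TPM above 0 in the same library, between 23.2% and 39.1% had a lower TPM than Dmrt2 in Knockout, and between 13.5% and 19.7% in Wild-Type. The authors' deposited table of normalized gene values, on their own scale, held Dmrt2 at 33.9 to 114 in Knockout and at 10.9 to 21.6 in Wild-Type libraries, again with no overlap.

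Dmrt2 was the only one of the 9 DMRT family genes with counts high enough to be tested. Dmrt1 and Dmrt3, its neighbours in the DMRT cluster on chromosome 19, had 0 reads in all 11 libraries, as did Dmrtb1, Dmrtc1b and Dmrtc2. A count of 0 allows up to 3 counts, or between 0.0666 and 0.125 CPM depending on the library. Dmrta2 had 65 reads over all libraries, from 2 to 12 per library, and stood at 0.206 ± 0.114 CPM in Knockout (SD, n = 6) against 0.165 ± 0.103 CPM in Wild-Type (SD, n = 5). Dmrta1 had 5 reads and Dmrtc1a had 1 read in all.

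The genes around Dmrt2 had far smaller differences. The closest ones with reads were Kank1, a regulator of the actin skeleton, 237915 bases away on the side of lower coordinates, and Smarca2, a catalytic subunit of the SWI/SNF chromatin remodelling complex, 926059 bases away on the other side. Kank1 stood at 20.9 ± 3.50 CPM in Knockout (SD, n = 6) against 21.6 ± 2.58 CPM in Wild-Type (SD, n = 5), a log2 difference of -0.05 ± 0.12 (SE; edgeR adjusted p = 0.894). Smarca2 stood at 59.6 ± 8.10 CPM (SD, n = 6) against 63.6 ± 5.08 CPM (SD, n = 5), a log2 difference of -0.09 ± 0.10 (SE; edgeR adjusted p = 0.734). Their ranges overlapped widely between genotypes. Farther on that side Gm815 had 0 reads and Vldlr, a lipoprotein receptor gene, had a log2 difference of 0.22 ± 0.09 (SE; edgeR adjusted p = 0.377). Kank1, Smarca2, Gm815 and Vldlr were added as the nearest genes in the tables, since the 3 nearest annotated genes on the side of higher coordinates, Gm8825, AC119996.1 and AC117629.1, were not analysed here.

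Of the embryonic partners of Dmrt2, Pax3, Pax7, Myf5, Myod1 and Myog were at or near 0, while Sox9 had 337 reads or more in every library. Pax3 and Pax7, the paired-box regulators of muscle precursors, had 0 reads in all libraries. Of the muscle-determining factors, Myf5, Myod1 and Myog had 1, 6 and 4 reads over all 11 libraries, and Myf6 had 52, with as many as 35 in a single library. Of 15 genes on the somite and early muscle list, 5 were tested and 0 passed in edgeR, against 0.055% of all genes tested. The count was 1 at an unadjusted p under 0.05, which 12.4% of all genes had, and 0 in DESeq2, where 1.09% of all genes passed.

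The 5 tested genes had a median log2 difference of 0.13, against -0.01 over all genes, and it lay between 0.01, without Knockout 2, and 0.30, without Wild-Type 3, when each library was left out. Eya2, a transcriptional cofactor of muscle precursors, had 5041 reads over all libraries, a mean of 14.6 CPM, and Tcf15 had 547 reads. Eya2 had a log2 difference of 0.43 ± 0.25 (SE), Tcf15 0.34 ± 0.23 and Six4 0.13 ± 0.31. Meox2, a homeobox gene of somites and vessels, was at -0.04 ± 0.26, and Tbx6, a T-box gene of the early somite, at -0.67 ± 0.30, the one with an unadjusted p under 0.05. Their edgeR adjusted p-values ran from 0.389 for Tbx6 to 0.967 for Meox2.

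On the cartilage list, 3 of 8 genes were tested and 0 passed in edgeR (0.055% of all genes), also 0 at an unadjusted p under 0.05 (12.4% of all genes) and 0 in DESeq2 (1.09%). Sox9, the master regulator of cartilage that epithelia also express, stood at 33.4 ± 14.0 CPM in Knockout (SD, n = 6) against 30.7 ± 12.9 CPM in Wild-Type (SD, n = 5), a log2 difference of 0.12 ± 0.35 (SE; edgeR adjusted p = 0.923). Its partners Sox5 and Sox6 differed by -0.28 ± 0.31 and 0.69 ± 0.43 (edgeR adjusted p = 0.751 and 0.529). Runx2 had 49 reads in all, and the cartilage matrix genes Col2a1, Acan and Col10a1 had 8, 8 and 1.

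Marker genes of adipocytes, the cells in which the Cre transgene is active, were also somewhat higher in Knockout glands, by far less than Dmrt2. Of 15 tested genes of the 16 on the list, 12 were higher and 3 lower, with a median log2 difference of 0.22. Without Knockout 2 the median was 0.12 and 9 of 15 were higher, while it was 0.35 without Wild-Type 4 and 0.34 without Knockout 5. None passed in edgeR. At an unadjusted p under 0.05, 7 of the 15 were higher, against 6.31% of all genes tested, and 4 were higher in DESeq2, against 0.649% of all genes it tested. These 4 were Adipoq, Plin4, Fabp4 and Cfd. Summed over the list, adipocyte transcripts spanned 1645 to 2262 CPM over the Knockout and 1195 to 1676 CPM over the Wild-Type libraries. Cfd, which encodes the secreted protease adipsin, stood at 905 ± 201 CPM (SD, n = 6) against 527 ± 120 CPM (SD, n = 5). It is the most abundant gene of the list, so the summed level follows Cfd more than any other member. Pnpla2, the gene of a triglyceride lipase, stood at 279 ± 57.4 CPM (SD, n = 6) against 330 ± 79.5 CPM (SD, n = 5), a log2 difference of -0.25 ± 0.18 (SE; edgeR adjusted p = 0.592).

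Set against adipocyte transcripts, Dmrt2 was also higher in Knockout. These ratios reuse the Dmrt2 values on which the gene was chosen and are descriptions. Adipoq, which encodes adiponectin and whose promoter drives the Cre transgene, stood at 47.7 ± 5.82 CPM in Knockout (SD, n = 6) against 36.1 ± 5.66 CPM in Wild-Type (SD, n = 5). There were 63.3, 24.9, 55.2, 53.4, 56.3 and 57.6 Dmrt2 reads per 1000 Adipoq reads in Knockout libraries 1 to 6, a mean of 51.8 ± 13.6 (SD, n = 6). In Wild-Type libraries 1 to 5 there were 8.87, 9.65, 13.8, 22.2 and 16.3, a mean of 14.2 ± 5.43 (SD, n = 5). Knockout 1 no longer stood apart on this scale, and Knockout 2 lay next to Wild-Type 4.

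Against Plin1, which encodes the lipid droplet coat protein perilipin 1, the ratio ran from 29.9 to 156 reads per 1000 in Knockout and from 14.7 to 27.4 in Wild-Type libraries. With the adipocyte score of each library as a covariate, the log2 difference of Dmrt2 was 2.32. The score is the mean over the list of log2 CPM after each gene is centred on its mean over the 11 libraries.

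**Figure D2:**
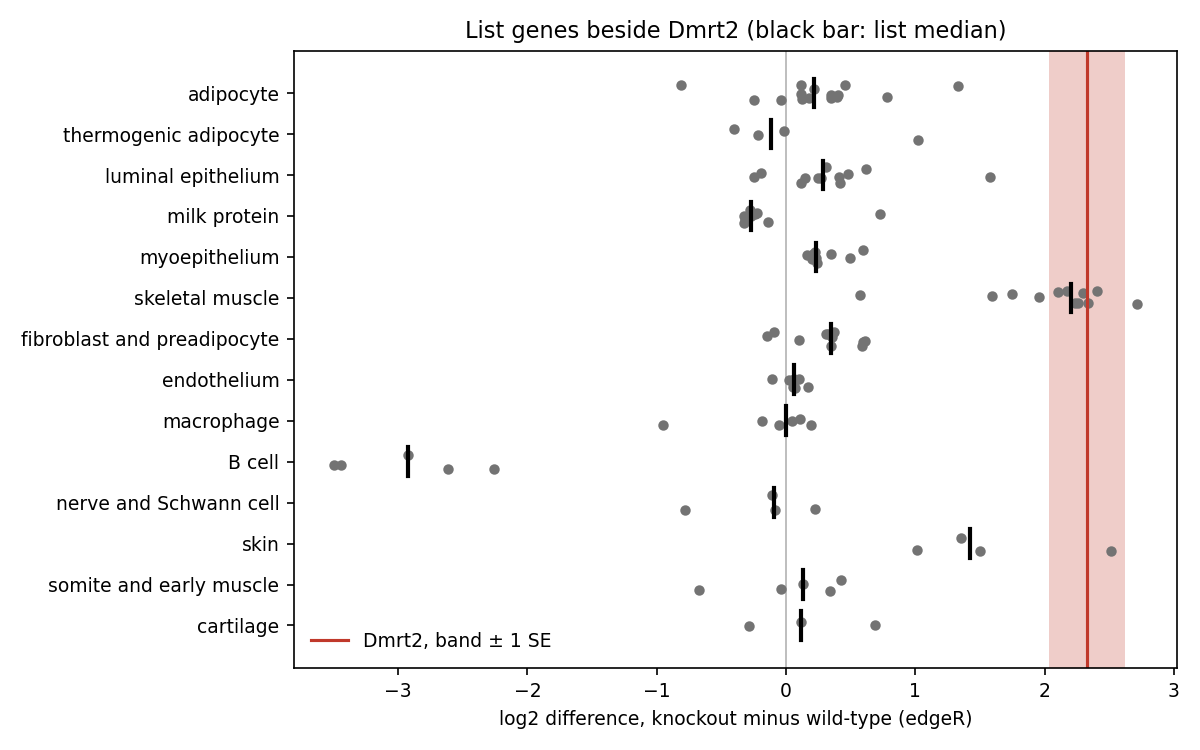
The log2 difference of each tested gene, Knockout minus Wild-Type, by list, with a black bar at the list median and a red line with a band of 1 SE at Dmrt2. The skeletal muscle median of 2.21 lies near the 2.33 of Dmrt2 but was 0.04 without Knockout 1, and the medians of the adipocyte, luminal and myoepithelial lists lie between 0.22 and 0.29.

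Skeletal muscle genes varied widely from library to library, and their fitted differences rested on Knockout 1. With all libraries the 12 tested genes of 13 were higher in Knockout, with a median log2 difference of 2.21. Without Knockout 1, a setting added after the data were seen, 6 of the 12 were higher and the median was 0.04. With all libraries none of the 12 passed in edgeR (0.055% of all genes) or DESeq2 (1.09%) or had an unadjusted p under 0.05 (12.4%). Summed muscle transcripts spanned 3.19 to 2419 CPM over the Knockout and 2.42 to 237 CPM over the Wild-Type libraries, with medians of 33.46 and 24.99 CPM. Knockout 1 had 2419 CPM and the next Knockout library 371 CPM. The muscle score differed by 0.45 on the log2 scale, where its SD was 3.05 in Knockout (n = 6) and 2.40 in Wild-Type (n = 5). Myh4, a fast myosin heavy chain gene, stood at 195 ± 467 CPM (SD, n = 6) against 29.8 ± 34.3 CPM (SD, n = 5), and Acta1, skeletal muscle actin, 71.6 ± 139 CPM (SD, n = 6) against 14.2 ± 18.2 CPM (SD, n = 5).

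Within the Knockout group, Knockout 1 had the most muscle RNA and the most Dmrt2, and Knockout 4 had the least muscle RNA, 3.19 CPM in all, with Dmrt2 at 2.62 CPM. The part of muscle RNA in the level of Dmrt2 was not tested. With the skeletal muscle score as a covariate the log2 difference of Dmrt2 was 2.32.

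Epithelial lists had small differences. Of 12 tested luminal genes, 10 were higher and 2 lower, with a median log2 difference of 0.29. None passed in edgeR or DESeq2, and 3 of the 12 were higher at an unadjusted p under 0.05, against 6.31% of all genes. Krt8, a keratin of luminal cells, stood at 224 ± 54.1 CPM in Knockout (SD, n = 6) against 160 ± 54.9 CPM in Wild-Type (SD, n = 5). The adhesion gene Epcam stood at 195 ± 30.1 CPM (SD, n = 6) against 165 ± 38.0 CPM (SD, n = 5).

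All 9 myoepithelial genes were higher, with a median of 0.23 (0.14 without Wild-Type 2 and 0.38 without Wild-Type 5), none past the threshold in edgeR or DESeq2 and 2 of the 9 higher at an unadjusted p under 0.05, against 6.31% of all genes. Their most abundant members, the smooth muscle genes Myh11 and Acta2, differed by 0.16 ± 0.14 and 0.21 ± 0.16 (log2, SE). Of the 9 milk protein genes 8 were lower, with a median of -0.27, and none passed in edgeR or DESeq2. The caseins Csn1s1 and Csn2 differed by -0.24 ± 0.12 and -0.27 ± 0.13 (log2, SE). Of the 9, 1 gene was higher at an unadjusted p under 0.05, against 6.31% of all genes, the innate defence gene Ltf, at a log2 difference of 0.73 ± 0.30 (SE), named after its value was seen.

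Skin keratinocyte markers had few reads, and their levels overlapped between the genotypes. The fitted differences of all 4 tested genes of 6 were above 0, with a median log2 difference of 1.43, which was 0.83 over 3 tested genes without Knockout 2. None passed in edgeR. At an unadjusted p under 0.05, 2 of the 4 were higher, against 6.31% of all genes, and Sbsn passed in DESeq2, where 0.649% of all genes were higher. The skin scores of Knockout 1, Knockout 4 and Knockout 6, at -0.93, 0.41 and -0.82, lay within the Wild-Type range of -1.03 to 0.42, while Knockout 2 stood at 2.66. Wild-Type 5 alone set the top of that range, as the other Wild-Type libraries were at -0.65 or lower. Summed skin transcripts spanned 5.89 to 27.8 CPM over the Knockout and 3.01 to 6.28 CPM over the Wild-Type libraries, and Dsc1 and Krtdap had 1 and 31 reads over all libraries. Sbsn, a gene of stratified epithelia, stood at 4.93 ± 1.56 CPM (SD, n = 6) against 2.44 ± 0.860 CPM (SD, n = 5), and Krt10, a keratin of the upper skin layers, 3.16 ± 3.86 CPM (SD, n = 6) against 1.22 ± 0.873 CPM (SD, n = 5). Knockout 2 had the most skin RNA, 27.8 CPM, and the least Dmrt2 of its group. Skin was not its only extreme score. It also had the highest luminal (0.48), myoepithelial (0.39), fibroblast (0.78) and endothelial (0.31) scores among Knockout libraries. Its milk protein score, -0.26, was the lowest of them. With the skin score as a covariate, chosen after the data were seen, the log2 difference of Dmrt2 was 2.58.

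Other cell types gave smaller or opposite differences. In the fibroblast and preadipocyte list 9 of 11 tested genes were higher, with a median log2 difference of 0.35, or 0.17 without Knockout 2. None passed in edgeR or DESeq2, and 3 of the 11 were higher at an unadjusted p under 0.05, against 6.31% of all genes. The collagen genes Col3a1 and Col1a2 differed by 0.36 ± 0.29 and 0.35 ± 0.26 (log2, SE). Medians were 0.06 for 8 endothelial genes, with Kdr at 0.02 ± 0.18 and Pecam1 at -0.11 ± 0.14, and 0.00 for 6 macrophage genes, with Csf1r at -0.19 ± 0.17 and Lyz2 at -0.95 ± 0.39. For 4 nerve and Schwann cell genes the median was -0.10, with Sox10 at -0.11 ± 0.10 and Mbp at -0.09 ± 0.15.

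For 4 thermogenic adipocyte genes the median was -0.12, with Cidea at -0.40 ± 0.12 and Prdm16 at -0.02 ± 0.28. Cox8b, named after its value was seen, went the other way at 1.02 ± 0.30, on 242 reads over all libraries. Cidea, which milk-secreting epithelium also makes, had a mean of 2067 CPM, while the brown fat genes Ucp1 and Cox7a1 were at 0.357 and 0.247 CPM and were not tested, so the summed level of this list is almost all Cidea. In the endothelial, macrophage, nerve and thermogenic lists none passed in edgeR or DESeq2, and 0, 1, 1 and 2 genes had an unadjusted p under 0.05, the last being Cidea, lower, and Cox8b, higher. Over all genes tested 12.4% had such a p. The medians of these 4 lists lay close to 0, and leaving out 1 library turned the sign of the endothelial, macrophage and thermogenic ones. The B cell genes went the other way from Dmrt2. All 5 tested were lower in Knockout, with a median of -2.92. None passed in edgeR or DESeq2, and all 5 were lower at an unadjusted p under 0.05, against 6.08% of all genes. Cd79a and Cd22 differed by -2.26 ± 0.84 and -3.44 ± 1.17 (log2, SE). Summed B cell transcripts spanned 1.03 to 15.6 CPM over the Knockout and 2.21 to 82.9 CPM over the Wild-Type libraries. With the B cell score as a covariate the log2 difference of Dmrt2 was 2.70, the highest of the settings tried. The covariate fits use the contrast on which Dmrt2 was chosen and are descriptions. What part the cell makeup of the samples has in the level of Dmrt2 was not tested.

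Within the 6 Knockout libraries the level of Dmrt2 was compared with the 12 marker scores, since the genotypes form separate clusters and a correlation over all 11 libraries would mostly restate the difference between them. No correlation was computed over the 5 Wild-Type libraries alone, since at least 6 were required. Exact two-sided permutation tests over pairings were used, and none of the 12 relations passed after adjustment (smallest adjusted p = 0.292). With the adipocyte score Pearson's r was -0.16 (exact permutation p = 0.726, adjusted p = 0.873) and Spearman's rho 0.26 (exact p = 0.658, adjusted p = 0.790). Without Knockout 1 and Knockout 2, the libraries farthest from the median score, r was 0.19 over 4 libraries. The score averages genes that went both ways, as 5 of its 15 genes had an r above 0 with Dmrt2 and 10 below, from 0.93 for Cfd and 0.82 for Cidec to -0.78 for Lipe and -0.88 for Aqp7. These values for single genes are descriptions without a test. With the luminal epithelium score r was -0.54 (exact permutation p = 0.263, adjusted p = 0.544) and rho -0.54 (exact p = 0.297, adjusted p = 0.790), and r was -0.42 without Knockout 2 and Knockout 4.

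With the skeletal muscle score r was -0.11 (exact permutation p = 0.842, adjusted p = 0.915) and rho 0.03 (exact p = 1, adjusted p = 1), and r was -0.57 without Knockout 1 and Knockout 2. By Pearson's r alone the strongest relation was with the skin score, at an r of -0.85 (exact permutation p = 0.0486, adjusted p = 0.292) and a rho of -0.60 (exact p = 0.242, adjusted p = 0.790). It rested on the 2 libraries farthest from the median, Knockout 1 and Knockout 2, without which r was 0.65. The endothelium score gave an r of -0.79 (exact permutation p = 0.0361, adjusted p = 0.292), a rho of -0.66 (exact p = 0.175, adjusted p = 0.790) and an r of -0.78 without Knockout 2 and Knockout 5. The other 7 scores gave r between -0.75 and 0.50, with exact permutation p-values of 0.168 or more.

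**Figure D3:**
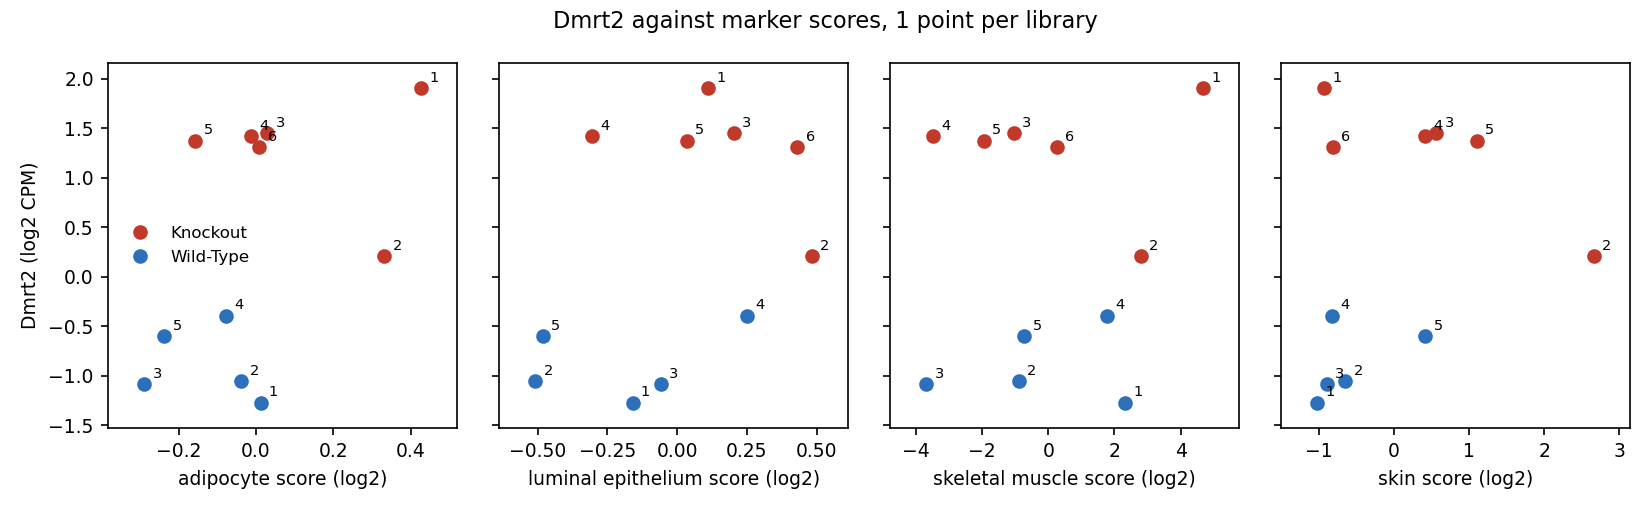
Dmrt2 in log2 CPM against the adipocyte, luminal epithelium, skeletal muscle and skin scores, 1 point per library with its replicate number. In every panel all Knockout points lie above all Wild-Type points. Knockout 2 combines the lowest Dmrt2 of its group with its highest skin and luminal epithelium scores.

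The genes most like Dmrt2 over all 11 libraries were found by Pearson's r of log2 CPM among 11119 tested genes with a mean of at least 1 CPM. The median r was -0.02, and 6 genes reached 0.9. The highest was Gm8113, which has a predicted name only, at 0.972. It stood at 22.7 ± 2.46 CPM in Knockout (SD, n = 6) against 13.6 ± 1.80 CPM in Wild-Type (SD, n = 5), a log2 difference of 0.74 ± 0.10 (SE; edgeR adjusted p = 0.0150), so it was also among the 7 genes past the threshold. These r values share the libraries and the genotype difference and are descriptions without a test. The 5 others were Pot1b, a telomere protein gene, at 0.961, Gpx3, a secreted glutathione peroxidase, at 0.947, Bbs7, of the ciliary BBSome complex, at 0.918, Prtn3, a serine protease of neutrophil granules, at 0.907, and Dhx36, a helicase gene, at 0.905. Of these 5, Gpx3 passed in edgeR, with 207 ± 39.7 CPM in Knockout (SD, n = 6) against 66.8 ± 23.4 CPM in Wild-Type (SD, n = 5) and a log2 difference of 1.63 ± 0.22 (SE; edgeR adjusted p = 0.0150). Prtn3, at 1.82 ± 1.00 CPM (SD, n = 6) against 0.229 ± 0.134 CPM (SD, n = 5), had a log2 difference of 2.98 ± 0.49 (SE; edgeR adjusted p = 0.0592). Prtn3 lies on chromosome 10, 79874476 to 79883174, close to the far more abundant adipocyte gene Cfd, 79890853 to 79892655. Whether that position or neutrophils bear on its level was not tested. Pot1b, Bbs7 and Dhx36 had small differences of 0.66, 0.28 and 0.20 on the log2 scale.

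After centring on the genotype means, which leaves the variation among animals of 1 genotype, different genes came first. Mon1b, a gene of endosome maturation, had an r of 0.958 and was the only one at or above 0.9, where the median over all genes was 0.01. It stood at 2.95 ± 0.402 CPM in Knockout (SD, n = 6) against 3.01 ± 0.234 CPM in Wild-Type (SD, n = 5), a log2 difference of -0.03 ± 0.12 (SE; edgeR adjusted p = 0.944). Next came Zbtb48, a telomere-binding zinc finger gene, at 0.892, Epm2aip1 at 0.886, Zbtb18, a zinc finger repressor gene, at 0.881, and Cd1d2, a lipid-presenting CD1 gene, at 0.877. Of the 5, Epm2aip1 was also near Dmrt2 over all libraries, with an r of 0.885 there. Pot1b had an r of 0.852 after centring, and Gpx3 one of 0.641. Within the Knockout group alone Gpx3 had an r of 0.740.

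**Figure D4:**
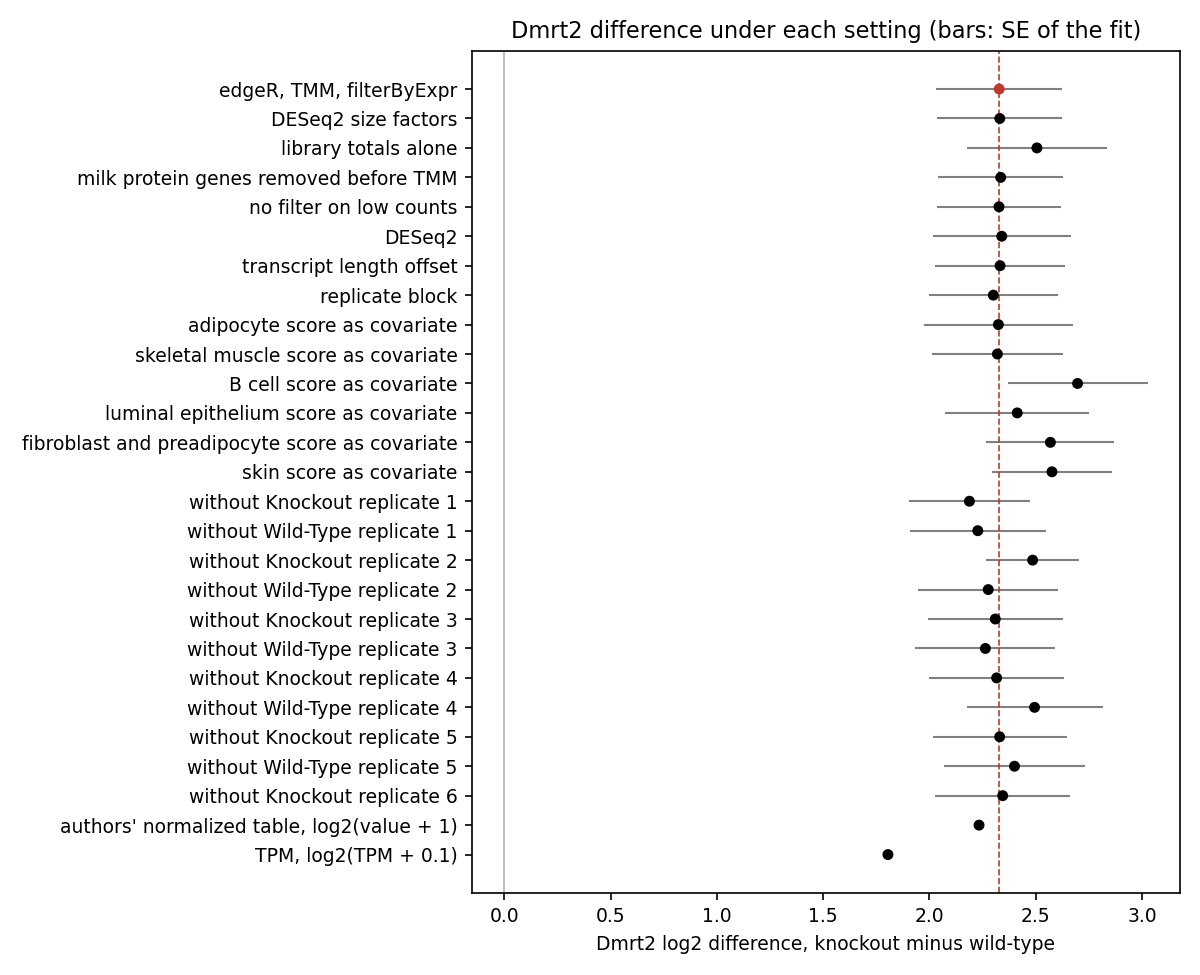
The log2 difference of Dmrt2, Knockout minus Wild-Type, under each setting, with the SE of the fit where one exists. The red point is the value in the report, 2.33, and the others lie between 1.80 and 2.70.

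The size of the Dmrt2 difference rested on no single library, but its place past the threshold did depend on which libraries entered. Leaving out each of the 11 in turn gave log2 differences between 2.19, without Knockout 1, and 2.49, without Wild-Type 4. Dmrt2 was past the adjusted threshold in 8 of these 11 fits and not past it without Knockout 3, Knockout 6 or Wild-Type 3, where its log2 differences were 2.31, 2.34 and 2.26. These fits reuse the libraries and the contrast on which Dmrt2 was chosen, so this count is a description and not a test. The number of genes past the threshold in the same comparison was much less stable, at 7 with all libraries, 0 without Knockout 3 or Knockout 6 and 28 without Knockout 2.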

How the data were processed

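The series holds RNA-seq of 11 inguinal mammary glands, made with a strand-specific Illumina kit per the labels. The submitters' processing notes name Salmon 1.3.0, DESeq2 1.28.1 and GRCm38.p6, and the index and bias options are not given in the sources used here. Per the file headers, the deposited tables give each transcript's effective length, TPM and estimated count. The authors also deposited normalized gene values, used here as a signal on their own scale. Estimated counts of 58204 transcripts were summed per gene through GENCODE M21 and rounded. Unmatched transcripts, 0.195% to 0.265% of reads, were left out. Genes with low counts were removed with filterByExpr, which left 12716. The main fit was edgeR 4.0.16 (quasi-likelihood F test, robust, TMM, genotype the only term) with Benjamini-Hochberg adjustment and a threshold of 0.05 on the adjusted p. CPM are after TMM scaling, and log2 CPM use a prior count of 2. Alternatives included DESeq2 1.42.0, other scalings, filters, covariates and left-out libraries.

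Dmrt2, the lists and the tests were chosen with earlier results of these data known. By rule, named genes are Dmrt2, the DMRT family, its nearest neighbours, the tested somite and cartilage genes, the 2 most abundant tested genes of each cell type list, and the 5 genes most like Dmrt2 by each measure, predicted names passed over. Named outside it, most after their values were seen, are Tsc1, Adipoq and Plin1 (a check of the labels and adipocyte references), Plin4, Fabp4, Cidec, Lipe, Aqp7, Ltf, Cox8b, Ucp1, Cox7a1, Dsc1, Krtdap, Gm8113, the neighbours beyond the nearest and untested somite and cartilage genes. No 2 libraries of a genotype agreed within counting noise (chi-square divided by its degrees of freedom was at least 21.9 in 25 combinations), so all 11 count as replicates.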

Additional observations from a re-analysis of the deposited data

Results flagged for a closer look

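Each of 38 groups of values was searched for 1 library standing far off the rest of its genotype. The search gave 7, and about 1.9 would come up by chance. The sets are not independent, since 7 of the 19 measures are Dmrt2 on different scales. No explanation was tested for any of them.

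For Dmrt2, Knockout 2 stood below the other Knockout libraries on 3 scales. Its log2 CPM was 0.21, against 1.31 to 1.91 in the others. It had 24.9 Dmrt2 reads per 1000 Adipoq reads, against 53.4 to 63.3. Its log2 CPM less the adipocyte score was -0.12, against 1.30 to 1.53. On the TPM scale it was Knockout 1 that stood apart, at 1.25, against 0.316 to 0.647 in the others.

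Among the marker scores, Knockout 1 had a B cell score of 1.40, and the rest of its group lay at -2.36 to -1.17. The nerve and Schwann cell score of Knockout 5 was -0.33, against -0.07 to 0.07. The skin score of Wild-Type 5 was 0.42, against -1.03 to -0.65 in the other Wild-Type libraries.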

How the results depend on the processing

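The log2 difference of Dmrt2 kept its direction under all 26 alternatives and moved by more than the spread between libraries in 1, log2(TPM + 0.1), at 1.80, where the added 0.1 is close to the Wild-Type level. Leaving out each library gave 2.19 to 2.49. The number of genes past the threshold was 7, and became 146 with DESeq2 (87 higher and 59 lower), 1 with the adipocyte score as a covariate, 12 with the skeletal muscle score, 25 with the B cell score and 2 with the luminal epithelium score. It ran from 0 to 28 when each library was left out. The covariates for luminal epithelium, fibroblasts and skin were chosen after the data were seen. Replicate numbers are shared between genotypes but do not mark shared animals, and same-numbered libraries correlated between -0.22 and 0.19 in their deviations from the genotype means. With a replicate block over the 5 shared numbers, which leaves out Knockout 6, the Dmrt2 difference was 2.30 and 0 genes passed. Without Knockout 6 and with no block 0 genes passed as well, so the count cannot be put down to the block. Of 60 alternative correlations with the scores none passed and 9 changed sign. With 4 libraries there are so few pairings that a single list could not pass. The nerve and Schwann cell score there had an r of -0.97 (exact permutation p = 0.0417, adjusted p = 0.5). For adipocytes r became 0.19 without the 2 farthest libraries, 0.14 with the list median and 0.0863 with library totals alone. Library totals alone also turned it for thermogenic adipocytes (0.0552), skeletal muscle (0.111) and macrophages (0.0129). Without the 2 farthest libraries it was 0.85 for fibroblasts and 0.65 for skin, and with all 11 libraries centred it was -0.0122 for milk proteins. Depth limits Dmrt2 most in Wild-Type libraries, at 10 to 23 reads each.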
